A study of Solanum lycopersicum x Solanum pennellii and Solanum lycopersicum and Solanum pennellii with 31 samples.

Results

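Small RNA (sRNA) loci were compared between seedlings of the introgression line IL1-1 and of tomato cultivar M82. Members were the loci of the seedling count table with a mean of at least 10 counts over the 3 libraries, which left 48590 of 219578 loci. Of these, 2984 lay on chromosome 1 between 1 and 86 Mb, called the introgression interval here, and 45606 lay elsewhere. The M82 libraries were made from 2 seedlings of Solanum lycopersicum cv. M82 and the IL1-1 library from 1 sample of the line, which is M82 with a segment of the wild species S. pennellii LA0716. All were from seedlings at 2 weeks with no treatment named in the labels, so that the segment was the labelled difference between the groups. With 1 library in the line no test was made. Every ratio is a description, set against the ratio of M82 replicate 1 to M82 replicate 2, and belongs to that IL1-1 library as much as to the line.

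Plant sRNAs are short RNAs cut by Dicer-like enzymes. Most loci in a seedling give the 24-nt class, which guides DNA methylation to matching sequence in the pathway called RNA-directed DNA methylation (RdDM), and this class comes largely from transposons and other repeats. Introgression lines carry a chromosome segment of a relative in an otherwise constant background, so that sRNAs can differ inside the segment, where the sequence itself differs, and outside it, where the sequence is expected to be that of the recurrent parent. Wide crosses in tomato are known to yield new sRNA loci and new epialleles of the paramutation-like kind, such as H06.

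The column totals were 4860695 and 2843012 counts in M82 replicates 1 and 2 and 4680913 in IL1-1, so that 1 M82 library was much shallower than the others. Counts were scaled to CPM, the counts per 1000000 counts of the column total, and log2 ratios were taken of IL1-1 to the mean of the M82 libraries after adding 0.5 CPM to each, which draws the ratios of low loci towards 0. Where a group had no reads, a floor of 3 counts was used for bounds, which was 0.389 CPM over both M82 libraries together and 0.641 CPM in IL1-1. The median locus outside the introgression interval had a log2 ratio of -0.12, and this shift of the scale applies to the log2 ratios to the M82 mean below. With M82 replicate 1 left out that median was 0.057, and with replicate 2 left out it was -0.19, so that ratios to single M82 libraries have other shifts. Between the M82 replicates the ratio had a median of 0.21 and an SD of 0.94 over the loci outside, and rank correlation over all members was 0.697 (Spearman, across loci, which are not independent). The library label was checked on position. The longest low stretch of IL1-1 lay on chromosome 1, and the same search placed the longest in IL2-5 on chromosome 2 and in IL8-3 on chromosome 8, the chromosomes in the names of the lines.

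Along chromosome 1, fewer sRNA reads were counted in IL1-1 than in M82 over most of the introgression interval that held enough loci to judge. The median log2 ratio over its 2984 loci was -1.56, with quartiles of -2.85 and -0.43, whereas M82 replicate 1 over replicate 2 had a median of 0.15 and quartiles of -0.42 and 0.70 over the same loci. Of all counted reads, 7.14% fell on loci of the interval in M82 replicate 1 (exact 95% interval 7.12 to 7.17%), 6.56% in M82 replicate 2 (6.53 to 6.59%) and 3.89% in IL1-1 (3.87 to 3.91%). The other introgression lines, whose segments are on other chromosomes, had 7.59% in IL2-5 and 6.75% in IL8-3, so that IL1-1 was the lowest of the 5 seedling libraries. PCR copies are not separate molecules, so these and all later intervals hold counting error alone. Reads were mapped to the genome of S. lycopersicum cv. Heinz, so that fewer sRNAs from the S. pennellii sequence and fewer of its reads finding a match cannot be told apart.

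**Figure D1:**
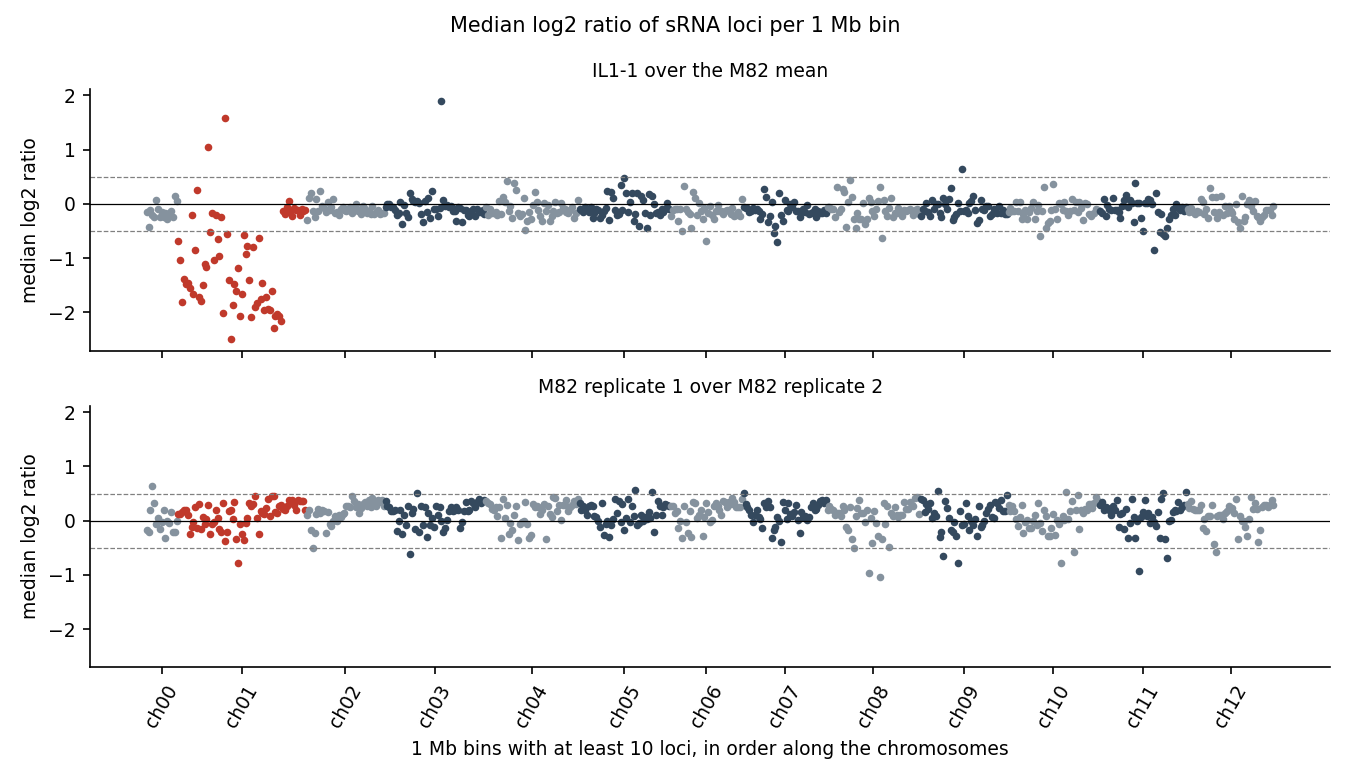
Median log2 ratio of the loci in each 1 Mb bin with at least 10 loci, in order along the chromosomes, for IL1-1 over the M82 mean (upper panel) and M82 replicate 1 over replicate 2 (lower panel). Red points are bins of chromosome 1 and dashed lines stand at -0.5 and 0.5. In the upper panel 48 of the 55 bins of the introgression interval lie at or below -0.5, and in the lower panel 1 does.

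In bins of 1 Mb, 55 of the 85 bins of the interval held at least 10 loci, 25 held fewer and 5 held none. Of these, 48 had a median log2 ratio of IL1-1 to M82 at or below -0.5 and 38 at or below -1, and the bins ran from -2.49 to 1.58. For the M82 replicates, 1 of the same 55 bins was at or below -0.5, and they ran from -0.77 to 0.46. The 13 bins of chromosome 1 from 86 Mb on ran from -0.23 to 0.05 in IL1-1 and none was shifted. All 48 low bins therefore lay below the range of the last 13 Mb of chromosome 1. The 38 at or below -1 also lay below the range between M82 plants, whereas some of the others lay within it, such as the bin starting at 21 Mb with -0.53.

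The block was bounded by fitting a single contiguous run of loci with a lower level, by least absolute deviations. It began in the gap between ch01:296178 and ch01:303577 and ended in the gap between ch01:85949908 and ch01:85953422 (build SL2.50), a length of 85.7 Mb that held 3076 of the 5134 members on chromosome 1. The fitted levels were -1.57 in the block and -0.12 on the other chromosomes. The 50 loci before the first border had a median of -0.13 and the 2008 loci after the second a median of -0.12, so that both flanks stood at the level of the rest of the genome. Applied to every other chromosome with the same step in level, the search found runs of 3 to 8 loci in IL1-1, and of 4 to 15 loci in the ratio of the M82 replicates, chromosome 1 included for the latter.

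Both borders were fitted to these same ratios, so that a step at each was built in, and the windows below only describe its size. In the 100 kb before the first border, the median log2 ratio was -0.16 over 24 loci and none was at least 4-fold lower than each M82 library, whereas in the 100 kb after it the median was -1.60 over 24 loci and 9 were. From 200 to 300 kb after it, the median was only -0.76 over 10 loci and 1 was at least 4-fold lower. In the 100 kb before the second border, the median was -2.75 over 13 loci with 7 at least 4-fold lower, and in the 100 kb after it -0.29 over 10 loci with 0. The 1 Mb bins blur the first border, since the first bin of chromosome 1 mixes loci on both sides and had a median of -0.69 over 146 loci.

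Most single loci next to the borders show the same step, with exceptions on either side. Cluster_4110 (ch01:292433-292486), outside the block, had 32 and 15 counts in M82 and 90 in IL1-1, 3.15-fold higher, with 79 in IL2-5 and 111 in IL8-3. Cluster_4115 (ch01:295982-296178), the last before the first border with a mean of at least 30 counts, had 46 and 13 counts in M82 replicates 1 and 2 and 38 in IL1-1. Cluster_4119 (ch01:306551-306985), the first of that depth after it, had 138 and 51 counts in M82 and 20 in IL1-1, a log2 ratio of -2.31. Cluster_4139 (ch01:340574-340896), the next one in, had 155 and 170 counts in M82 and 130 in IL1-1, a log2 ratio of -0.71 to the M82 mean, and of -1.09 and -0.20 to the M82 libraries singly.

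At the second border, Cluster_21567 (ch01:85903097-85903193) had 277 and 202 counts in M82 and 1 in IL1-1, where IL2-5 had 216 and IL8-3 had 232. Cluster_21573 (ch01:85909641-85909695), the last deep locus of the block, had 41 and 50 counts in M82 and 1 in IL1-1. Beyond the border, Cluster_21591 (ch01:85953422-85953627) had 32 and 25 counts in M82 and 36 in IL1-1. The change from nearly no reads to the M82 level thus fell within a stretch that held no locus of that depth.

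**Figure D2:**
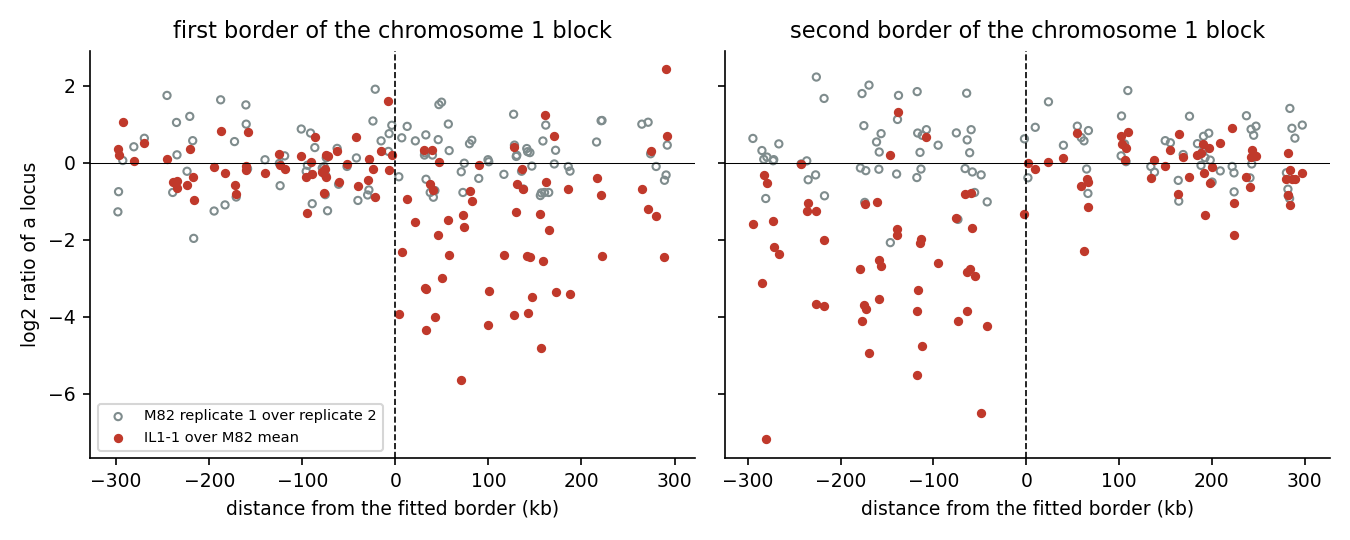
Log2 ratio of each locus within 300 kb of the first and second border of the chromosome 1 block, by distance from the border in kb, with loci of larger coordinate to the right. Red points are IL1-1 over the M82 mean, to which the borders were fitted, and open circles M82 replicate 1 over replicate 2. Of the red points 51 of 105 on the block side lie at or below -2, against 1 of 99 on the other side, where the lowest is at -2.30.

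Within the block the shift was a mixture and not an even lowering. Of the 2984 loci of the introgression interval, 992 were at least 4-fold lower in IL1-1 than in each M82 library, 603 lay within 2-fold of both and 93 were at least 4-fold higher than each. Loci of the first and last kind are called lowered and raised. The share lower was 33.2%, against 0.594% of the 45606 loci outside, and the share higher was 3.12% against 0.645%. Of the 93 raised loci 79, and of the 294 outside 218, were members only because IL1-1 was high. The shares higher therefore depend on the filter and do not show an excess in the interval. Between the M82 replicates in the interval, 1.14% of loci were at least 4-fold lower and 3.08% at least 4-fold higher in replicate 1 than in replicate 2, and outside it 1.12% and 3.29%. The M82 pair is a comparison of single libraries, whereas a changed locus had to pass against each M82 library, so that these shares are not of the same kind.

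**Figure D3:**
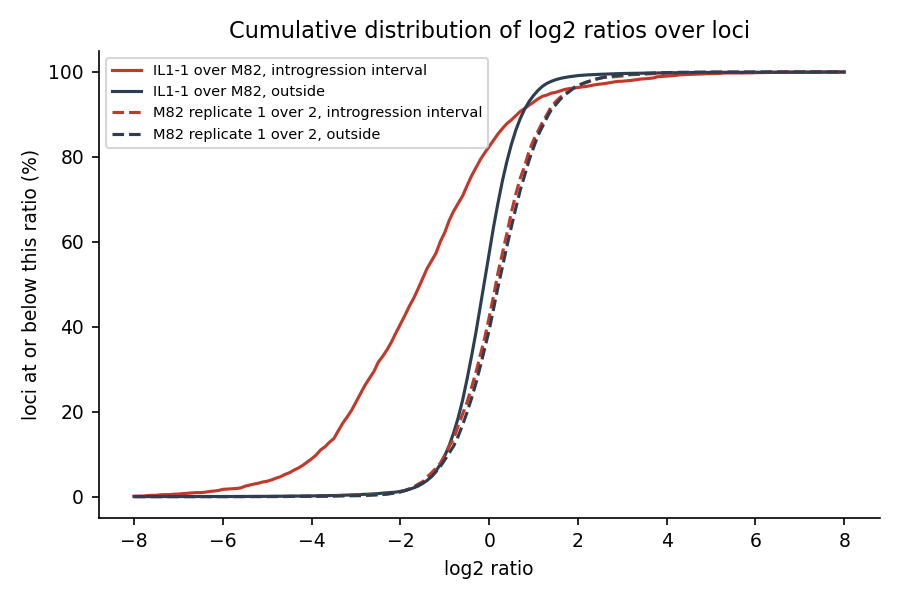
Share of loci (%) at or below a given log2 ratio, for loci of the introgression interval (red) and outside it (dark), with IL1-1 over the M82 mean as solid and M82 replicate 1 over replicate 2 as dashed lines. The solid red curve lies far to the left, with a median of -1.56, and the other curves have medians from -0.12 to 0.21.

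The lowering was most regular where loci were dense. Chromosome 1 was divided at the first bin from either side that held fewer than 40 members, which gave a first dense part (1 to 7 Mb, 748 loci), a sparse middle (7 to 74 Mb, 832 loci, 12.4 per Mb) and a second dense part (74 to 86 Mb, 1404 loci, 117 per Mb). Every bin of both dense parts was low, from -1.80 to -1.03 in the first and from -2.28 to -1.46 in the second. In the sparse middle the median of the loci was -0.97, the 37 bins ran from -2.49 to 1.58, and 3 bins had a median above 0.

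The sparse middle also held the largest share of raised loci among members. Of the 93 raised loci of the interval, 79 were members only because IL1-1 was high, so that this share depends on the filter. The stretches were not recomputed with the filter on M82 alone. There 24.4% of loci were at least 4-fold lower than each M82 library, 5.41% were at least 4-fold higher and 25.7% lay within 2-fold of both. In the second dense part the same shares were 39.2%, 2.21% and 15%, and in the first 32%, 2.27% and 23.9%. The ratio of the M82 replicates also spread somewhat more in the middle, with an SD of 1.09 against 0.92 and 0.91 in the dense parts, and bins there rest on few loci. Its gene and repeat content was not analysed here.

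**Figure D4:**
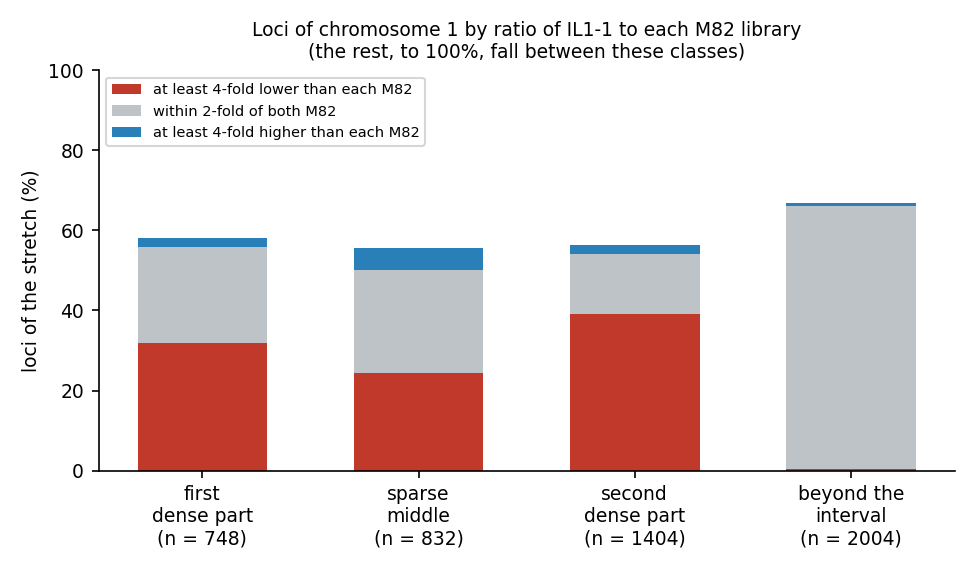
Share of loci (%) in 3 classes of ratio of IL1-1 to each M82 library, for the 3 stretches of the introgression interval and for chromosome 1 beyond it, with the number of loci under each bar. Loci at least 4-fold lower make up 32%, 24.4% and 39.2% of the stretches and 0.399% of the 2004 loci beyond.

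In reads, the stretches also differed. The second dense part held 2.96% and 2.66% of all counts in M82 replicates 1 and 2 and 1.01% in IL1-1. The first dense part held 2.45% and 2.11% in M82 and 1.60% in IL1-1, and the middle 1.74% and 1.79% in M82 and 1.28% in IL1-1. Past 86 Mb the shares were 3.55% and 3.48% in M82 and 3.58% in IL1-1, so that the loss of reads stopped with the block.

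The ratios also varied with the depth of a locus, as the mean over the 3 libraries. That mean included IL1-1, so that a loss moved a locus to a shallower class. The added 0.5 CPM also drew the ratios of shallow loci towards 0. How far either shaped the trend was not tested. Over loci of the interval with a mean of 10 to 30 counts the median log2 ratio was -1.39, with 30 to 100 counts -1.90, with 100 to 300 counts -2.25, and with 300 or more -1.06 over 81 loci. In the deepest class 35.8% of loci were at least 4-fold lower and 27.2% within 2-fold of both M82 libraries. Outside the interval the same classes had medians from -0.15 to 0.00.

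The 5 loci of the interval with the highest M82 level were all within 2-fold of both M82 libraries. Cluster_5257 (ch01:1900504-1903259) had 22460 and 9408 counts in M82 and 20172 in IL1-1, which is 4621, 3309 and 4309 CPM, so that IL1-1 lay between the M82 plants. Cluster_5254 (ch01:1896844-1898630), just before it, had 2323 and 2058 CPM in M82 and 3414 CPM in IL1-1, above both. Cluster_5214 (ch01:1848811-1854659) had 1151 and 1004 CPM in M82 and 788 CPM in IL1-1, below both. The remaining pair stood side by side further along the interval. Cluster_13773 (ch01:66780956-66782375) had 1696 and 1355 CPM in M82 and 1873 CPM in IL1-1. Cluster_13774 (ch01:66782571-66783093) had 600 and 1039 CPM in M82 and 614 CPM in IL1-1, again between the M82 values.

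These 5 loci held 14.5% and 13.4% of the counts of the interval in M82 replicates 1 and 2 and 28.3% in IL1-1. Without them the interval held 6.10% and 5.68% of all counts in M82 and 2.79% in IL1-1. IL2-5 also had 28.2% of the interval's counts on them, and IL8-3 had 10.7%, so that a high share was not particular to IL1-1.

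Other deep loci of the block were nearly empty in IL1-1. Cluster_13339 (ch01:64061550-64062720) had 3424 and 2003 counts in M82 and 6 in IL1-1, while IL2-5 had 4366 and IL8-3 had 6208, and the pooled M82 level was 549.6-fold that of IL1-1 (exact 95% counting interval 252 to 1498). Its neighbour Cluster_13338 (ch01:64058297-64060605) had 3915 and 1823 counts in M82 and 9 in IL1-1, a ratio of 387-fold (204 to 848). This emptied pair lies less than 3 Mb from the retained pair of Cluster_13773 and Cluster_13774. Cluster_17139 (ch01:78285344-78285587) had 1822 and 1279 counts in M82 and 7 in IL1-1.

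At 2 of the most lowered loci a single IL1-1 read remained. Cluster_16145 (ch01:76270939-76271443) had 994 and 576 counts in M82 and 1 in IL1-1, a ratio of 954-fold with a counting interval from 171 to 37703. Cluster_19927 (ch01:83115572-83115743) had 648 and 348 counts in M82 and 1 in IL1-1, a ratio of 605-fold (108 to 23927). In the whole table, 149 of the 1557 loci of the interval with at least 50 M82 counts had 0 counts in IL1-1 (9.57%), against 46 of 20851 outside (0.221%).

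Some loci of the block had reads in IL1-1 and none in M82. Of the 619 loci of the interval with at least 30 counts in IL1-1, 23 had 0 in both M82 libraries (3.72%), against 52 of 19720 outside (0.264%). Candidates were chosen by their IL1-1 count, which was low over the interval, so that part of this contrast follows from the choice. Before any filter the interval held 17051 of the 219578 loci. Cluster_12723 (ch01:59651668-59651698), only 31 bp long, had 0 counts in both M82 libraries, in IL2-5 and in IL8-3, and 441 in IL1-1, at least 242-fold higher against a floor of 3 counts over both M82 libraries. Cluster_10590 (ch01:27960606-27960828) had 0 in M82, 2 in IL2-5, 0 in IL8-3 and 171 in IL1-1, at least 93.8-fold higher than M82. Cluster_6517 (ch01:3702409-3702446) had 0 in M82, IL2-5 and IL8-3 and 151 in IL1-1, at least 82.8-fold higher than M82. These loci exist in the Heinz assembly, yet no read of either M82 seedling was counted on them.

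The other most raised loci of the interval had a few M82 reads. Cluster_9657 (ch01:18639304-18639416) had 1 and 1 counts in M82 and 541 in IL1-1, a ratio of 445-fold (counting interval 123 to 3685). Cluster_9113 (ch01:13984402-13984477) had 17 and 18 counts in M82, 14 in IL2-5, 32 in IL8-3 and 2446 in IL1-1, a ratio of 115-fold (82.5 to 166). Raised loci were short, with a median of 136 bp against 226 bp for lowered loci and 238 bp for those within 2-fold, and 24.7% of them were 50 bp or shorter against 5.23% of all members in the interval. This was not particular to the interval. Outside it, raised loci had a median of 140 bp and lowered loci 154 bp, against 232 bp for all members there. Of the raised loci outside, 18.4% were 50 bp or shorter, against 4.06% of all members outside.

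Whether a raised locus was counted depended on the filter. Of the 93 raised loci of the interval 79, and of the 294 raised loci outside 218, had a mean under 10 counts in M82 and were members only because IL1-1 was high, so that they had to differ. With the mean taken over the M82 libraries alone, which tests another set of loci, there were 14 raised and 1200 lowered loci in the interval, and 76 raised and 347 lowered outside. The numbers of loci passing that filter are not given here, so that these counts do not compare the interval with the rest of the genome. At the edge of the filter, the 77 loci of the interval with a summed count of 30 had a median log2 ratio of -1.36, and the 91 just below it, at 29, had -1.12.

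Outside the introgression interval most loci stayed near M82. Within 2-fold of both M82 libraries were 29180 of 45606 loci (64%), whereas 294 were at least 4-fold higher than each and 271 at least 4-fold lower than each, which are the 0.645% and 0.594% given above. Of the lowered loci, 38 lay in the first Mb of chromosome 1, all of them inside the fitted block, so that 233 lay outside the block together with 293 raised loci. On chromosomes 2 to 12, raised loci numbered 10 to 39 and lowered loci 10 to 27 per chromosome, and the most raised, 39, were on chromosome 3. Changed loci were thus spread over the whole genome, and under this filter raised loci were the more numerous, more so outside the block. Over the 45606 loci, 1089 were at least 4-fold higher and 710 at least 4-fold lower than M82 replicate 2 alone. Against replicate 1 alone these were 605 and 737, so that the direction with more loci differed between the M82 libraries. M82 replicate 1 was itself at least 4-fold higher than replicate 2 at 1501 of these loci and lower at 509. IL1-1 thus did not differ from either M82 library at more loci than the M82 libraries did from each other. With totals over the loci outside the interval as the scale, 282 were raised and 295 lowered.

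By reads, the raised loci outside held 0.239% and 0.213% of all counts in M82 and 2.48% in IL1-1, and the lowered loci 0.789% and 0.957% in M82 and 0.0762% in IL1-1. These values follow from how the loci were chosen. In the other lines, the raised loci held 0.904% in IL2-5 and 1.15% in IL8-3. All lines were compared with the same M82 libraries, so their ratios share that side. Set directly against IL1-1, 166 of the 294 raised loci (56.5%) were at least 4-fold lower in both IL2-5 and IL8-3 than in IL1-1, and 34 (11.6%) were within 2-fold of IL1-1 in both. Of the 271 lowered loci, 124 (45.8%) were at least 4-fold higher in both other lines than in IL1-1 and 39 (14.4%) were within 2-fold in both. The IL1-1 value enters each of these ratios. The 271 lowered loci include the 38 inside the fitted block, so that these shares of loci and reads are not those of the rest of the genome alone. They were not recomputed without these loci.

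**Figure D5:**
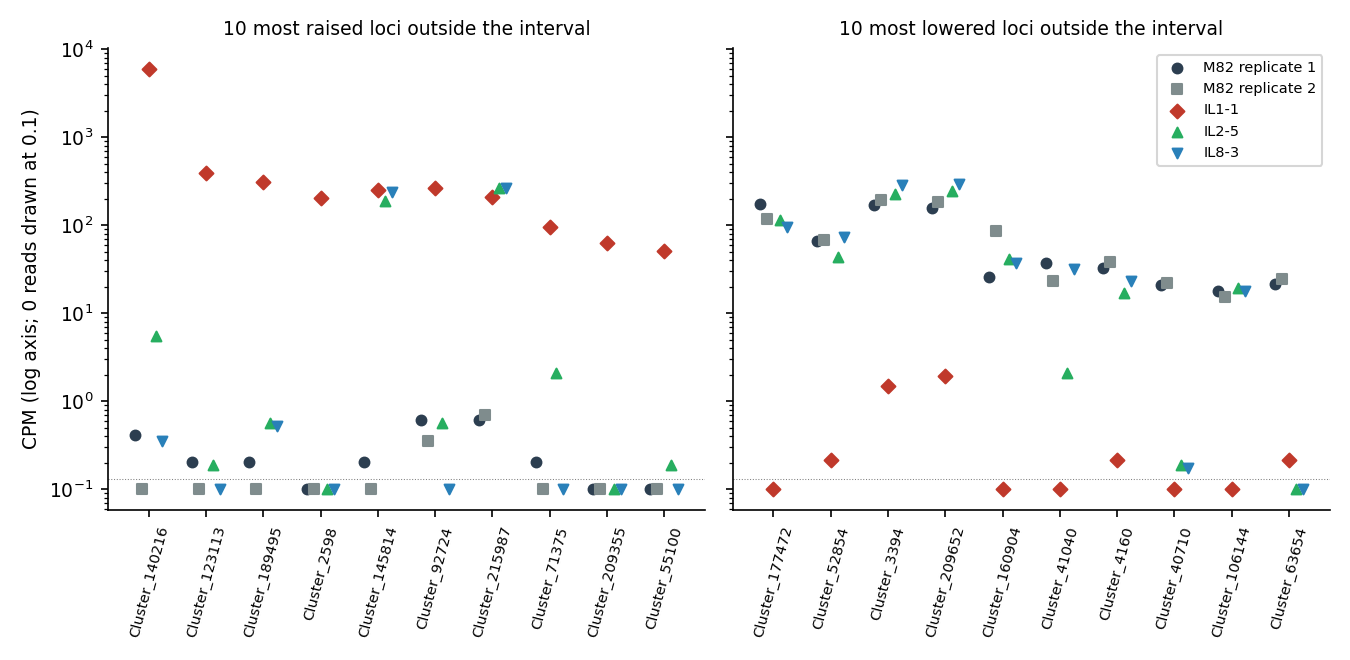
CPM (log axis, with 0 counts drawn at 0.1) in the 5 seedling libraries for the 10 loci outside the introgression interval most raised (left) and most lowered (right) in IL1-1. For 8 of the 10 raised loci IL1-1 alone is high, and at Cluster_145814 and Cluster_215987 all 3 lines are.

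The most raised locus of the genome was Cluster_140216 (ch08:15090309-15090520, 212 bp). It had 2 and 0 counts in M82 replicates 1 and 2, 29 in IL2-5, 2 in IL8-3 and 28122 in IL1-1, where it took 0.601% of all counts. The pooled ratio to M82 was 23141-fold, with a counting interval from 6406 to 191094 because M82 had only 2 reads. Further along, Cluster_140220 (ch08:15120273-15120552) and Cluster_140221 (ch08:15120651-15120847) had 34 and 31 counts in IL1-1 and 0 in the other 4 libraries. The gain was thus concentrated in a single short locus with a trace next to it.

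Other loci were high in IL1-1 and near 0 in the other 4 libraries of the table. Cluster_123113 (ch07:14084026-14084086) had 1 and 0 counts in M82, 1 in IL2-5, 0 in IL8-3 and 1817 in IL1-1, a ratio of 2990-fold (536 to 118177). Cluster_189495 (ch11:3031859-3031931) had 1 and 0 counts in M82, 3 in each of the other lines and 1464 in IL1-1, a ratio of 2409-fold (432 to 95231). Cluster_2598 lay on unplaced sequence (ch00:16693531-16694891), where a position does not say which chromosome it is from. It had 947 counts in IL1-1 and 0 in the other 4 libraries, at least 519.5-fold higher than M82. Cluster_92724 (ch05:26985705-26985831) had 3 and 1 counts in M82 and 1246 in IL1-1, 512.7-fold higher, with 3 in IL2-5 and 0 in IL8-3.

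Cluster_71375 (ch04:6968053-6968113) had 1 and 0 counts in M82, 11 in IL2-5, 0 in IL8-3 and 443 in IL1-1. Cluster_209355 (ch12:19189161-19189261) had 298 counts in IL1-1 and 0 in the other 4 libraries, at least 163-fold higher than M82. Against these 8 loci, counting Cluster_55100 below, the epiallele H06 (Cluster_145814) and the locus at the region Hyper1 (Cluster_215987) ranked 5th and 7th among the most raised, and they were also high in both other lines, with 1008 and 1391 counts in IL2-5 and 1364 and 1493 in IL8-3. H06 and Hyper1 were chosen by the study with these seedlings in view and are no independent sample of the genome.

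A few raised loci stood next to each other. On chromosome 3, Cluster_55100 (ch03:39907115-39907403), Cluster_55103, Cluster_55109 and Cluster_55111 lay within 22.8 kb and had 239, 158, 61 and 95 counts in IL1-1. The first 3 had 0 counts in both M82 libraries and the last had 2 and 0, and each had 1 count in IL2-5 and 0 in IL8-3. They lay in the bin from 39 to 40 Mb of chromosome 3, which had a median of 1.90 and, among bins of the other chromosomes with at least 10 loci, was the only one beyond 1 either way. Of its 11 loci 5 were raised, the fifth being Cluster_55087 (ch03:39793808-39793936) with 32 and 5 counts in M82, 132 in IL1-1, 175 in IL2-5 and 141 in IL8-3. Cluster_55074 (ch03:39489507-39489705), the deepest in the bin, had 162 and 85 counts in M82 and 76 in IL1-1.

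On chromosome 1, beyond the block, Cluster_25932, Cluster_25943, Cluster_25951 and Cluster_25975 lay within 67.8 kb from ch01:93898692 to ch01:93966442. They had 113, 182, 41 and 176 counts in IL1-1 and at most 2 in either M82 library. IL8-3 had 11, 12, 1 and 10 counts on them and IL2-5 0, 0, 0 and 2, so that IL8-3 had a low level where M82 had almost none. On chromosome 11, Cluster_193434, Cluster_193436 and Cluster_193438 lay within 9.7 kb and had 53, 42 and 71 counts in IL1-1 against 1 count in all in M82. In total, 6 groups of at least 3 raised loci with gaps of at most 100 kb were found outside the interval.

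Lowered loci formed 3 such groups, and 2 of these were the start of the chromosome 1 block. The third was on chromosome 2, where Cluster_30146, Cluster_30147 and Cluster_30149 lay within 9.02 kb from ch02:19051119 to ch02:19060139. Cluster_30146 had 439 and 162 counts in M82 and 25 in IL1-1, while IL2-5 had 467 and IL8-3 had 696. Cluster_30147 and Cluster_30149 had 58 and 14, and 23 and 19, counts in M82 and 0 in IL1-1.

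The most lowered locus outside the interval was Cluster_177472 (ch10:34543648-34543766). It had 843 and 331 counts in M82, 607 in IL2-5, 551 in IL8-3 and 0 in IL1-1, at least 238-fold lower against a floor of 3 counts in IL1-1. Cluster_52854 (ch03:18589803-18589880) had 322 and 194 counts in M82 and 1 in IL1-1, a ratio of 314-fold (56.0 to 12407), and 230 and 418 in IL2-5 and IL8-3. Cluster_106144 (ch06:29739182-29739352) had 88 and 44 counts in M82, 103 and 102 in the other lines and 0 in IL1-1, at least 26.7-fold lower. At these loci IL1-1 alone lacked the sRNAs.

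Cluster_160904 (ch09:43052306-43052467) had 127 and 242 counts in M82, 221 and 210 in the other lines and 0 in IL1-1, at least 74.7-fold lower. Here the M82 replicates themselves differed, with 26.1 and 85.1 CPM, and the other lines lay between them. Cluster_41040 (ch02:45586540-45586643) had 182 and 66 counts in M82, 181 in IL8-3, 11 in IL2-5 and 0 in IL1-1, and it lies in the low stretch of IL2-5 on chromosome 2. Cluster_4160 (ch01:370572-370821), with 158 and 109 counts in M82 and 1 in IL1-1, is outside the interval only by its fixed start at 1 Mb and lies inside the fitted block. Cluster_40710 and Cluster_63654, also among the 10 most lowered, had at most 1 count in each of the 3 lines and were not particular to IL1-1. Cluster_40710 also lies in the low stretch of IL2-5 on chromosome 2.

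Among the 10 most lowered were 2 loci of 38 bp with almost the same counts. Cluster_3394, on unplaced sequence (ch00:19603623-19603660), had 836 and 545 counts in M82, 7 in IL1-1, 1208 in IL2-5 and 1638 in IL8-3. Cluster_209652 (ch12:23789645-23789682) had 765 and 527 in M82, 9 in IL1-1, 1306 in IL2-5 and 1655 in IL8-3. Whether they are copies of the same sequence that shared reads was not tested, so they may not count as separate losses.

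Of the 5 deepest raised loci outside the interval, Cluster_140216 is described above, and the other 4 were 5.40-fold to 7.92-fold above pooled M82. Cluster_105499 (ch06:25283156-25283332) had 647 and 409 CPM in M82 and 3195 CPM in IL1-1, and 1083 and 4494 CPM in IL2-5 and IL8-3. Cluster_66905 (ch04:423111-423238) had 168 and 134 CPM in M82 and 1232 CPM in IL1-1, close to 1212 CPM in IL2-5, with 749 CPM in IL8-3. Cluster_210788 (ch12:36734251-36734943) and Cluster_177894 (ch10:39302223-39302598) were 5.53-fold and 5.40-fold above pooled M82 and were also above both M82 libraries in the other lines. The deepest raised loci, apart from Cluster_140216, were therefore above both M82 libraries in all 3 lines.

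Of the 5 deepest lowered loci, Cluster_3394 is described above as 1 of the most lowered. Cluster_194797 (ch11:17960309-17961262) had 2020 and 3088 CPM in M82 and 255 CPM in IL1-1, with 327 and 221 CPM in IL2-5 and IL8-3. Cluster_910, on unplaced sequence (ch00:9327884-9328318), had 725 and 963 CPM in M82 and 115 CPM in IL1-1, with 207 and 98.3 CPM in the other lines. All 3 lines lay below both M82 plants at these loci. Cluster_153089 (ch08:65527886-65528093) had 180 and 375 CPM in M82, 28.8 CPM in IL1-1 and 34.1 CPM in IL2-5, and in IL8-3, within that line's own low stretch, 0.527 CPM. Cluster_4472 (ch01:831273-831636) belonged to the fitted block and had 339 and 385 CPM in M82 and 56.6 CPM in IL1-1.

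Few whole bins shifted outside the interval. Of 536 bins on the other chromosomes and unplaced sequence with at least 10 loci, 10 had a median log2 ratio at or below -0.5 and 2 at or above 0.5. For the M82 replicates the same counts were 11 and 9. That ratio sets single libraries against each other, whereas IL1-1 was set against the mean of 2, so these counts are not of the same kind. With M82 replicate 1 or 2 left out, 24 and 19 bins outside the interval were shifted either way in IL1-1. All 12 shifted bins of IL1-1 against the M82 mean held between 10 and 17 loci. The second raised bin, from 35 to 36 Mb of chromosome 9, had a median of 0.65 over 12 loci, and its deepest locus, Cluster_160602 (ch09:35460950-35461393), had 335 and 274 counts in M82, 1837 in IL1-1 and 4272 in IL2-5.

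Of the shifted bins, 4 lay close together on chromosome 11, between 35 and 44 Mb, with medians of -0.84, -0.52, -0.55 and -0.59. IL2-5 had medians of -0.64, -0.54, -0.13 and -0.75 in the same bins and IL8-3 -0.56, -0.40, 0.07 and -0.39, against the same M82 libraries. In the last of them the deepest locus, Cluster_197829 (ch11:43151932-43152026), had 467 counts in M82 replicate 1 and 18 in replicate 2, against 3 in IL1-1, so that the M82 plants alone differed widely there. In the bin from 30 to 31 Mb of chromosome 7, which had a median of -0.70, the deepest locus, Cluster_124320 (ch07:30150719-30151010), had 18931 and 21438 counts in M82 and 54078 in IL1-1, and went against its bin.

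Of the 16 other regions that the study had singled out for methylation, 7 were overlapped by a locus. The study chose regions in part for sRNAs that differed in these seedlings, so that their counts are no independent evidence. At Hyper2, Cluster_42481 had 0 counts in both M82 libraries and 143 in IL1-1, at least 78.4-fold higher, with 94 in IL2-5 and 91 in IL8-3. At Hyper6, Cluster_149224 had 1 and 1 counts in M82 and 163 in IL1-1, with 140 and 124 in the other lines. At Hyper7, Cluster_79739 had 9 and 0 counts in M82 and 173 in IL1-1, with 162 and 154 in the other lines. The changes at these regions were thus seen in all 3 lines. Hyper2, however, lies inside the introgressed region of IL2-5, as the study states, so that the count of that line there is not of the same kind. At Hypo3, Cluster_116135 had 91 and 35 counts in M82 and 0 in all 3 lines, at least 25.5-fold lower in IL1-1. At Hypo6, Cluster_92231 had 5 and 4 counts in M82, 14 in IL2-5, 35 in IL8-3 and 25 in IL1-1, 4.57-fold higher with a counting interval from 2.06 to 11.1. At Hyper3, Cluster_164356 had 18 and 8 counts in M82 and 4 in IL1-1 and stood exactly at the filter, and Cluster_164355 there and Cluster_106453 at Hypo2 did not pass it.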

How the data were processed

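The authors mapped the sRNA libraries of the seedlings to the Heinz genome SL2.50 and clustered them into loci with ShortStack under default parameters, and they deposited the raw count of reads per locus for 5 libraries. How reads with several matching places were assigned is not given in the sources used here beyond those defaults, so that loci in repeats can share reads. The study's methods state that labels of these libraries were corrected after an earlier deposit. Tables of H06 reads in other tissues were not used here.

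CPM, ratios and medians were computed with pandas 2.3.3 and numpy 2.4.6 in Python 3.11.15, exact intervals with scipy 1.17.1 and TMM factors with edgeR 4.0.16 in R 4.3.3. The 2 M82 libraries and the IL1-1 library were used, with column totals from 2843012 to 4860695 counts as the depth. IL2-5 and IL8-3 did not enter the filter or the calls of raised and lowered loci. They were set beside named loci, bins and shares, and used to check the library label. They also served to sort the changed loci outside the interval and to find the locus where the lines went opposite ways. Loci needed a mean of at least 10 counts over the 3 libraries, and a pseudocount of 0.5 CPM was added. A locus was called raised or lowered at 4-fold or more against each M82 library. The border search was checked on simulated counts. The M82 spread is that between 2 seedlings and their libraries, which cannot be told apart.

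Loci were named by a rule: outside the introgression interval the 10 with the largest of the smaller ratios and the 5 deepest per direction, inside it the 5 highest in M82, most lowered, most raised and highest within 2-fold, the 3 nearest loci of at least 30 counts on each side of a border, the 3 deepest of each shifted bin, and loci at H06 or the methylated regions of the study. Neighbours in groups of changed loci were chosen after their values were seen. The members, the interval and the rule were chosen with earlier results of these data known. Alternatives were other scalings, pseudocounts, filters, bin and fold limits, border fits and leaving out an M82 library. No genome or annotation was used here, so that genes, repeats and sequences at the loci are not given.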

Additional observations from a re-analysis of the deposited data

Results flagged for a closer look

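At 1 locus the lines went opposite ways from M82, each by at least 4-fold against both M82 libraries. Cluster_135754 (ch08:505820-506008) had 81 and 141 counts in M82 replicates 1 and 2, 4 in IL2-5, 13 in IL8-3 and 1262 in IL1-1. The log2 ratio of IL1-1 to M82 was 3.01, and the pooled ratio was 9.36-fold (exact 95% counting interval 8.11 to 10.8). The M82 replicates had 16.7 and 49.6 CPM, IL1-1 had 270 CPM, and IL2-5 and IL8-3 had 0.754 and 2.29 CPM. The difference between the lines was not tested, as each has 1 library.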

How the results depend on the processing

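In all, 10 results were recomputed: the medians in and outside the introgression interval, the shifted bins, the borders and the counts of raised and lowered loci. The median in the interval stayed below 0 in every alternative run. It was -1.89 with a mean of at least 30 counts, -1.83 with the filter on the M82 libraries alone, and -1.19 to -1.50 when an M82 library was left out. The median outside turned sign with TMM factors (0.041), and when an M82 library was left out it ran from -0.19 to 0.057. The share of raised among changed loci outside was 52.0%, 59.5% with TMM factors, 56.1% with centred ratios and 48.9% (282 raised and 295 lowered) with totals over loci outside the interval, where lowered loci were the more numerous. With a mean of at least 30 counts there were 21 low bins on chromosome 1 in place of 49, and 32 with at least 20 loci in a bin. Shifted bins outside numbered 13, 4 with a mean of at least 30 counts, 34 with at least 5 loci in a bin, 1 with at least 20 loci, 1 with a limit of 1 on the log2 scale, 32 with the filter on M82 alone, and 19 to 24 when an M82 library was left out.

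Counts of changed loci moved with depth and fold. In the interval, raised loci numbered 149 with a mean of at least 5 counts, 25 with at least 30, 155 at 2-fold, 55 at 8-fold, 14 with the filter on M82 alone and 157 to 169 against a single M82 library. Lowered loci there numbered 471 with at least 30 counts, 1596 at 2-fold, 466 at 8-fold and 818 to 1311 against a single M82 library. Outside, raised loci numbered 470 with a mean of at least 5 counts, 138 with at least 30, 1380 at 2-fold, 135 at 8-fold, 76 with the filter on M82 alone and 745 to 1074 against a single M82 library. Lowered loci outside numbered 411, 113, 1878 and 102 under the first 4 of these settings, 566 at 4-fold against the M82 mean alone, and 631 to 857 against a single M82 library. Leaving out a library also changed which loci passed the filter. With the loci kept, there were 121 and 133 raised and 1265 and 1124 lowered loci in the interval against replicates 1 and 2 singly, and 605 and 1089 raised and 737 and 710 lowered outside.

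The first border moved to 0.301 Mb and the second to 85.93 Mb with a mean of at least 30 counts, and with at least 5 the second stood at 85.95 Mb, unmoved to 2 decimals. The edges of runs of shifted bins of 0.5 Mb stood at 0 and 86 Mb, which is the resolution of such bins. Neither border moved when an M82 library was left out. The filter on M82 alone, the centred ratios, the single M82 libraries with the loci kept and the use of the fitted block as the interval were chosen after seeing the data. No paired analysis was possible because the line has 1 library. Loci at the floor of 3 counts limit the depth at which a loss can be seen.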
